A study of Neogale vison with 6 samples.

Results

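The 9 genes examined here encode enzymes that turn squalene epoxide into the sterol rings and carry lanosterol towards cholesterol: *LSS*, *CYP51A1*, *TM7SF2*, *LBR*, *MSMO1*, *NSDHL*, *HSD17B7*, *SC5D* and *DHCR7*. They were chosen by gene symbol in the count table, which lists 24526 genes, and each symbol had a single row. RNA-seq was performed on Mv1Lu, a cell line derived from mink lung, with 3 control libraries from untreated cells and 3 libraries from cells after cholesterol depletion (CD). For CD, the cells received 50 μM of the statin lovastatin and 50 μM mevalonate for 16 h, in medium with 10% lipoprotein-deficient serum (LPDS), so the comparison covers statin, mevalonate and serum together. The control is described as untreated, and all libraries come from this 1 line, so the p-values measure the spread between libraries of a cell line, whose separate cultures are not described in the labels.

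Cells make cholesterol from acetyl-CoA by way of mevalonate and squalene. Statins block the making of mevalonate, long before the first ring is closed. The ring stage begins when lanosterol synthase folds squalene epoxide into lanosterol, and the enzymes that follow strip methyl groups from carbons 14 and 4, move and reduce double bonds and yield cholesterol. When sterols run low in the endoplasmic reticulum, SREBP transcription factors are released from their membrane anchors and raise the transcription of many enzymes of the pathway. The step after the removal of the methyl group at carbon 14 can be carried out by 2 reductases, TM7SF2 in the endoplasmic reticulum and LBR, the lamin B receptor, which sits in the inner nuclear membrane and also binds lamins and heterochromatin proteins.

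The libraries held between 13473820 and 18633764 reads counted on genes. Expression levels are given as CPM, counts of a gene per 1000000 reads after TMM normalization. CD and control were compared by the quasi-likelihood test of edgeR over all 12148 genes with enough counts, with p-values adjusted by the Benjamini-Hochberg method (FDR) and genes called below 0.05. Many genes were called in this comparison, 47.7% of those tested (24.8% as higher and 22.9% as lower in CD), and the median log2 fold change (log2FC) of all tested genes was 0.057. CD replicate 3 differed most from the other CD libraries, and values without it are given where they matter. The markers of the line were mixed. *KRT7*, an epithelial keratin, was abundant, with 7126 ± 265 CPM in the control libraries and 1256 ± 156 CPM after CD (SD, n = 3 each), whereas the epithelial genes *EPCAM* and *CDH1* had 9 and 26 reads over all 6 libraries. The summed level of the 6 epithelial markers found, of 8 listed, was 7924 to 8573 CPM in the control and 1675 to 2076 CPM in the CD libraries, a sum set mainly by *KRT7*. Of the 4 tested, *KRT7* and *KRT19* were lower, *TJP1* was not called, and *CLDN4*, a tight junction gene of low level, was higher, from 0.60 ± 0.23 to 7.03 ± 1.11 CPM (SD, n = 3 each; log2FC 3.55). The summed level of the 6 fibroblast markers, set mainly by the widely expressed *VIM*, was 4266 to 4538 CPM and 3922 to 4969 CPM. In edgeR, 4 of these 6 were lower and 0 higher, *COL3A1* at -1.72, *PDGFRB* at -1.08, *COL1A1* at -0.93 and *COL1A2* at -0.37, while *VIM* (0.029) and *PDGFRA* (-0.043) were not called. For the 6 alveolar and airway markers, of which *SFTPC* and *SFTPB* were at 0 reads, the sum was 4.19 to 4.73 CPM and 2.46 to 3.44 CPM. The 5 endothelial and leukocyte markers found, of 6 listed, summed to 5.20 to 5.67 CPM and 17.1 to 22.7 CPM, mostly through the lysosomal protein gene *CD68*. The part of these shifts in the results below was not tested.

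All 9 genes passed the filter on low counts, with between 1631 (*TM7SF2*) and 48984 (*LSS*) reads over the 6 libraries. By the test in edgeR, 8 of the 9 were higher in CD and 1, *LBR*, was lower, beside 47.7% of all tested genes called in either direction. For the 8 higher genes the lowest CD library exceeded the highest control library, as it did for 29.5% of all tested genes, and for *LBR* all CD libraries lay below the control, as they did for 28.6%. The median log2 fold change of the 9 genes was 1.20, with 6 of them at least 2-fold higher, a size of increase that was called for 10.6% of all tested genes. Together, the 9 genes took 0.1004% ± 0.0103 of the reads on genes in control and 0.235% ± 0.0167 in CD (SD, n = 3 each), 2.34 times the share (two-sided exact permutation test, p = 0.1, which is the lowest p possible with 3 libraries a group). This share is set mainly by *LSS*, *CYP51A1* and *DHCR7*, with 48984, 37979 and 27372 reads over the 6 libraries. CPM is a share of the reads counted on genes in a library, scaled by TMM. A change in the RNA per cell and one in the number of cells that express a gene therefore cannot be told apart.

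**Figure D1:**
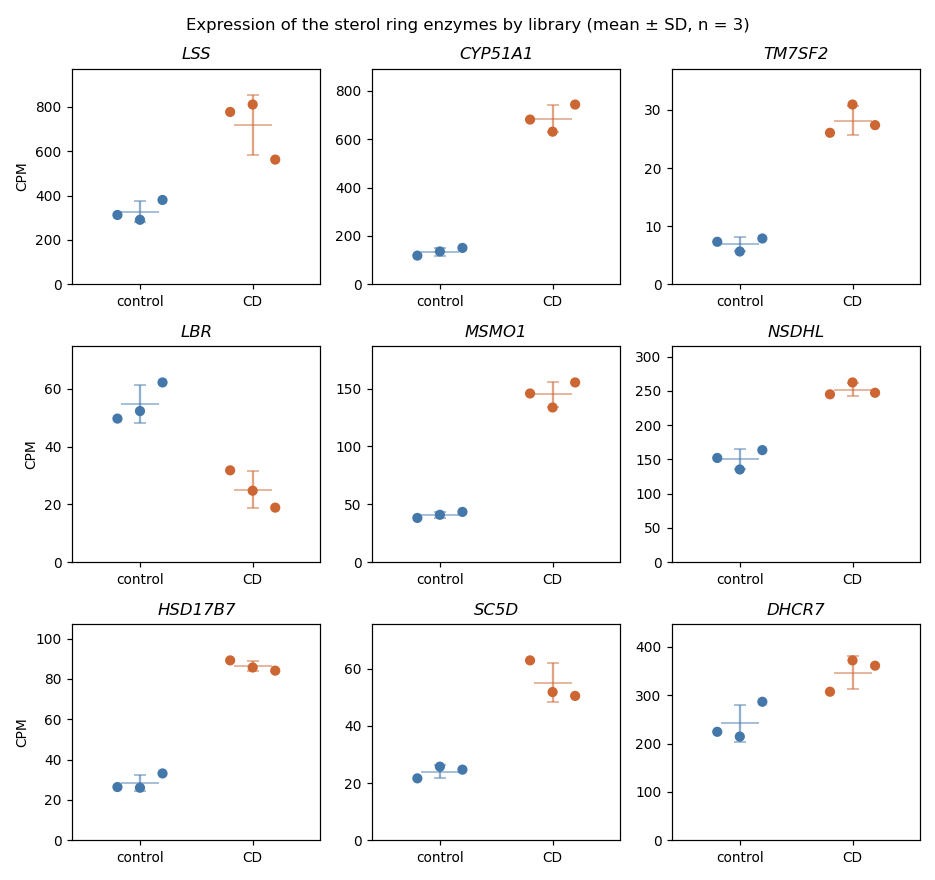
CPM (vertical axes, linear and starting at 0) of the 9 sterol ring enzymes in each control (blue) and CD (orange) library, with the mean ± SD of 3 libraries as a horizontal dash and bar. The CD points lie above the control points in 8 panels and below them for *LBR*, and for *DHCR7* the groups come closest, with the highest control library at 286 CPM and the lowest CD library at 307 CPM.

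*LSS*, lanosterol synthase, closes the rings (ENSNVIG00000008849 in the count table). It was at 313, 291 and 381 CPM in the control libraries (replicates 1, 2 and 3, in this order throughout) and at 778, 811 and 563 CPM in the CD libraries. The groups did not overlap, and CD replicate 3 was the lowest of the CD libraries. The mean rose from 328 ± 46.7 to 717 ± 135 CPM (SD, n = 3 each), or 2.19-fold, a log2FC of 1.13 ± 0.17 (standard error, SE; edgeR FDR 3.70e-04).

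*CYP51A1*, the cytochrome P450 that removes the methyl group at carbon 14 of lanosterol (ENSNVIG00000003969), had the highest fold change of the 9 genes. It was at 119, 136 and 151 CPM in the control and at 682, 631 and 744 CPM in the CD libraries. The lowest CD library thus stood far above the highest control library, by 2.07 on the log2 scale. The log2FC was 2.34 ± 0.13 (SE; edgeR FDR 8.85e-07), or 5.07-fold, which placed *CYP51A1* at position 224 of the 12148 tested genes when these are ordered from the highest fold change. The reads of *LSS* relative to those of *CYP51A1* in the same library, a ratio that does not depend on normalization, had a mean log2 value of 1.28 ± 0.16 in control and 0.050 ± 0.40 in CD (SD, n = 3 each). The reads of *CYP51A1* relative to *LSS* rose 2.34-fold (exact permutation test, two-sided p = 0.1).

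The step after *CYP51A1*, reduction of the double bond at carbon 14, was the one at which the genes moved in opposite directions. *TM7SF2* (ENSNVIG00000017532), the gene with the fewest reads of the 9, was at 7.31, 5.64 and 7.88 CPM in the control libraries and at 26.1, 30.9 and 27.4 CPM in the CD libraries, which corresponds to 102, 78 and 143 reads and to 424, 504 and 380 reads. All CD libraries were close to each other and well above the control. The log2FC was 2.01 ± 0.18 (SE; edgeR FDR 1.41e-05), or 4.04-fold. *LBR* (ENSNVIG00000015260) was at 49.7, 52.3 and 62.1 CPM in the control libraries and at 31.8, 24.7 and 18.9 CPM in the CD libraries. CD replicate 3 held the lowest and CD replicate 1 the highest value of the treated cells, still below the lowest control library. The log2FC of *LBR* was -1.12 ± 0.19 (SE), so that it was 2.17-fold lower in CD (edgeR FDR 9.00e-04). Without CD replicate 3 the log2FC of *LBR* was -0.99 and without CD replicate 1 it was -1.31. These were the ends of the range over the tests that left out 1 library, and the gene was called in each.

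Because both genes were counted in the same libraries, their balance could be followed library by library. *TM7SF2* made up 12.8%, 9.74% and 11.3% of the reads of both reductases in the control libraries and 45.1%, 55.6% and 59.2% in the CD libraries. The highest upper bound of a 95% Clopper-Pearson interval in the control, 15.4%, was below the lowest lower bound in CD, 41.8%, where the intervals cover counting error alone. The mean share was 11.3% ± 1.55 in control and 53.3% ± 7.34 in CD (SD, n = 3 each; exact permutation test, two-sided p = 0.1). The ratio of *TM7SF2* to *LBR* reads rose 9.0-fold, by 3.17 on the log2 scale, with a range of 2.998 to 3.408 when each library was left out in turn. The CPM of the pair added together was 57.0, 57.9 and 70.0 in the control libraries and 57.8, 55.6 and 46.2 in the CD libraries. These sums overlapped between the groups, with means of 61.6 ± 7.29 and 53.2 ± 6.15 CPM (SD, n = 3 each; exact permutation test, two-sided p = 0.2). Read shares are not corrected for transcript length, so they describe the change between libraries and not which of the reductases had more mRNA.

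**Figure D2:**
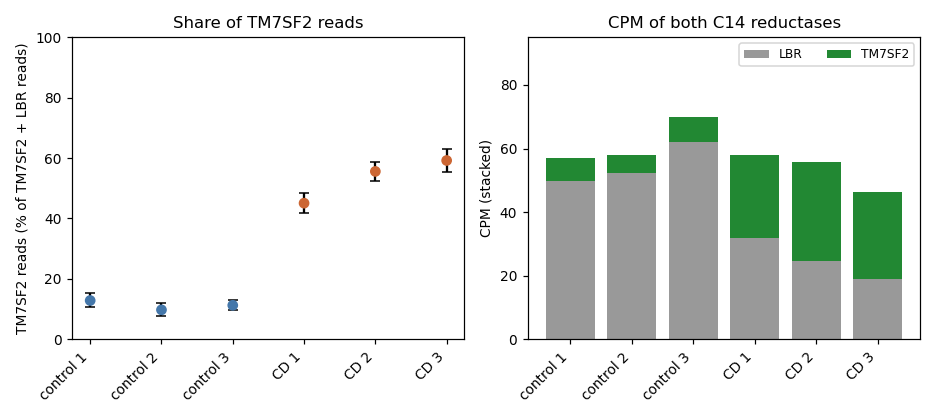
Left, *TM7SF2* reads as a percentage of *TM7SF2* plus *LBR* reads in each library (points, blue control, orange CD), with 95% Clopper-Pearson intervals for counting error. Right, stacked CPM of *LBR* (grey) and *TM7SF2* (green) per library, not corrected for transcript length. The share lies between 9.74% and 12.8% in control and between 45.1% and 59.2% in CD, while the stacked heights overlap.

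The removal of the methyl groups at carbon 4 needs a set of enzymes that act in turn, the oxidase MSMO1, the dehydrogenase NSDHL and the ketone reductase HSD17B7. All of their genes rose, by 1.67-fold to 3.54-fold. *MSMO1* (ENSNVIG00000022952) was at 38.3, 41.0 and 43.5 CPM in the control and 146, 134 and 155 CPM in the CD libraries, with a log2FC of 1.82 ± 0.12 (SE; edgeR FDR 2.00e-06), or 3.54-fold. The libraries of each group lay within a narrow range, and no library stood out. *HSD17B7* (ENSNVIG00000016780) was at 26.4, 26.0 and 33.1 CPM in the control and 89.2, 85.7 and 84.1 CPM in the CD libraries. Its log2FC was 1.60 ± 0.13 (SE; edgeR FDR 1.02e-05), or 3.03-fold.

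*NSDHL* (ENSNVIG00000004766), the enzyme of the carbon 4 step that releases the carbon as carbon dioxide, had the lowest fold change of this set. It was at 152, 135 and 164 CPM in the control libraries and at 245, 262 and 247 CPM in the CD libraries, again without overlap. The log2FC was 0.74 ± 0.11 (SE; edgeR FDR 4.45e-04), or 1.67-fold. Measured as a ratio within libraries, the reads of *MSMO1* relative to *NSDHL* rose 2.11-fold and those of *HSD17B7* relative to *NSDHL* 1.82-fold (exact permutation tests, two-sided p = 0.1 for each). Both differences had the same direction in every test that left out a library, at 1.01 to 1.16 and 0.80 to 0.91 on the log2 scale in size. *ERG28*, a scaffold protein that holds the enzymes of this step together, had a log2FC of 0.17 ± 0.12 (SE) and was not called (edgeR FDR 0.27).

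Both genes of the late steps measured here rose, *SC5D* 2.29-fold and *DHCR7* 1.43-fold. *SC5D* (ENSNVIG00000001398), the desaturase that introduces the double bond at carbon 5, was at 21.6, 25.7 and 24.7 CPM in the control and 62.9, 51.8 and 50.5 CPM in the CD libraries. CD replicate 1 was the highest, and the groups did not overlap. The log2FC of *SC5D* was 1.20 ± 0.14 (SE; edgeR FDR 9.31e-05), or 2.29-fold. *DHCR7* (ENSNVIG00000009959), the reductase that turns 7-dehydrocholesterol into cholesterol, was at 224, 214 and 286 CPM in the control and 307, 372 and 361 CPM in the CD libraries. Its log2FC of 0.52, with an SE of 0.14 and a 95% interval of 0.21 to 0.83, was the smallest of the higher genes (1.43-fold, edgeR FDR 0.0120). Without control replicate 1, control replicate 2 or CD replicate 2, the log2 fold change of *DHCR7* was 0.47, 0.44 and 0.44 and it was not called (edgeR FDR 0.0648, 0.0631 and 0.0604). Within libraries, the reads of *SC5D* relative to *DHCR7* rose 1.59-fold (exact permutation test, two-sided p = 0.1).

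**Figure D3:**
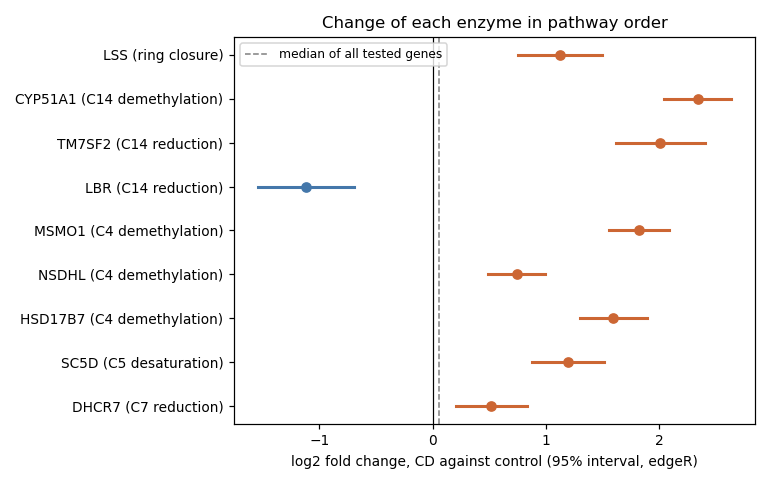
Log2 fold change of CD against control (horizontal axis) for the 9 enzymes in the order of the pathway, with 95% intervals from edgeR. The dashed line marks the median of all tested genes at 0.057. The interval of *LBR* (-1.54 to -0.70) is the one that lies wholly below 0, and *CYP51A1* has the highest value, 2.34.

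Ordered by fold change, the genes ran from *CYP51A1* through *TM7SF2*, *MSMO1*, *HSD17B7*, *SC5D*, *LSS*, *NSDHL* and *DHCR7* to *LBR*. Neighbours in this order were closer than their added SEs for *TM7SF2* and *MSMO1* (0.19 on the log2 scale), *MSMO1* and *HSD17B7* (0.23), *SC5D* and *LSS* (0.070), and *NSDHL* and *DHCR7* (0.22). The gaps between *CYP51A1* and *TM7SF2* (0.33), *HSD17B7* and *SC5D* (0.40), *LSS* and *NSDHL* (0.39), and *DHCR7* and *LBR* (1.64) exceeded the added SEs. That of *CYP51A1* and *TM7SF2* did so narrowly (0.33 beside 0.31), and without control replicate 1 these genes were closer, at 2.25 and 2.05. A comparison with added SEs is a description and not a test of a difference. The order of the increases did not follow the order of the reactions. In all, 5 pairs of genes were compared as ratios within libraries, and with adjustment over the 5 pairs (Benjamini-Hochberg) every exact permutation p remained at 0.1, so none reached 0.05 in a design of this size.

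The genes also differed in how closely the CD libraries agreed. The coefficient of variation of CPM among the CD libraries was lowest for *HSD17B7* (3.02%) and *NSDHL* (3.74%) and highest for *LSS* (18.8%) and *LBR* (25.7%), beside a median of 17.0% over all tested genes. In the control libraries it ranged from 6.37% (*MSMO1*) to 16.8% (*TM7SF2*), with a median of 8.80% over all tested genes. CD replicate 3 stood apart for *LSS*, while for *LBR* the CD libraries were spread out, at 31.8, 24.7 and 18.9 CPM. The CPM of CD replicate 3 relative to the mean of the other CD libraries was -0.50 on the log2 scale for *LSS* and -0.58 for *LBR*. For the other 7 genes this value was between -0.18 (*SC5D*) and 0.18 (*CYP51A1*). CD replicate 3 was the lowest CD library for 4 of the 9 genes and for 41.0% of all tested genes.

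Most enzymes of the isoprenoid and squalene stage rose as well. Of 10 genes listed from *ACAT2*, which makes acetoacetyl-CoA, to *SQLE*, which makes squalene epoxide, with the side branch *GGPS1* included, 8 were found by symbol and all 8 were tested. In edgeR, 7 of these were called higher and 0 lower, beside 24.8% and 22.9% of all tested genes. Their median log2FC was 1.498, beside 0.057 over all tested genes. *FDFT1*, squalene synthase, rose from 112 ± 7.14 to 505 ± 16.1 CPM (SD, n = 3 each; log2FC 2.17, SE 0.11; edgeR FDR 4.95e-07), a size between those of *CYP51A1* and *TM7SF2*. *PMVK*, phosphomevalonate kinase, had a log2FC of -0.063 and was not called (edgeR FDR 0.78), whereas without CD replicate 3 it was called lower at -0.31 (edgeR FDR 0.0172). *GGPS1*, which leads away from sterols to protein prenylation, was called at 0.65 but not without control replicate 1, control replicate 3 or CD replicate 2, each of which left 6 higher genes.

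Of 3 further genes of the ring stage, 2 were found and tested, with 1 higher and 1 not called in edgeR, beside 24.8% of all tested genes higher. *EBP*, the sterol isomerase, had no row under this symbol. *FAXDC2*, a little studied relative of the sterol oxidases, was at 2.65, 2.17 and 3.14 CPM in the control and 4.86, 3.93 and 3.89 CPM in the CD libraries, a low level at which the groups did not overlap. Its log2FC was 0.66 ± 0.22 (SE; edgeR FDR 0.0337). *FAXDC2* was not called in DESeq2 (FDR 0.0896), nor without control replicate 1, control replicate 2, CD replicate 1 or CD replicate 2 in edgeR, so that the number of higher genes in this list went from 1 to 0 in each of these tests.

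Several of the ring enzymes use oxygen and need electrons from partner proteins. CYP51A1 receives them from POR, the P450 oxidoreductase, and MSMO1 and SC5D from cytochrome b5. Of 6 genes for such partners, 5 were found and tested, with 2 higher, 1 lower and 2 not called in edgeR, beside 24.8% of all tested genes higher and 22.9% lower. *CYB5R3*, the reductase of cytochrome b5, rose from 91.0 ± 7.70 to 183 ± 19.7 CPM (SD, n = 3 each; log2FC 1.01, SE 0.12; edgeR FDR 1.22e-04). *POR* was lower in CD, with a log2FC of -0.38 ± 0.12 (SE; edgeR FDR 0.0265), beside the increase of 2.34 for *CYP51A1*. *CYB5B*, the cytochrome b5 of the outer mitochondrial membrane, was called higher at 0.33, and *CYB5A*, the cytochrome b5 of the endoplasmic reticulum, was not called at 0.19. *CYB5B* was not called with all libraries in DESeq2 (FDR 0.0658), or in edgeR with DESeq2 size factors (FDR 0.0571) or with no filter on low counts (FDR 0.0569). Its call was also lost without any of control replicates 1, 2 and 3 or CD replicates 2 and 3, which left 1 higher gene. That of *POR* was lost without control replicate 3, which left 0 lower genes, and without CD replicate 3 there were 2 lower genes, since *CYB5R1* was then called at -0.26 (edgeR FDR 0.0366).

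Among the genes of SREBPs and the proteins that hold, escort or cut them, 6 of 7 were found and tested, with 1 higher, 1 lower and 4 not called in edgeR, beside the same shares of all tested genes (24.8% and 22.9%). *INSIG1*, the sterol-dependent anchor of SREBPs, was higher, with a log2FC of 1.67. *SREBF1* was lower, from 667 ± 105 CPM to 398 ± 26.0 CPM (SD, n = 3 each; log2FC -0.74, SE 0.14; edgeR FDR 0.00146), and *SREBF2*, whose product favours the genes of cholesterol synthesis, had a log2FC of 0.17 (SE 0.14, edgeR FDR 0.34). *SCAP*, *MBTPS1* and *MBTPS2* were not called at -0.074, -0.16 and -0.35. Without CD replicate 1 there were 2 lower genes, *SREBF1* and *MBTPS2*, the latter at -0.55.

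As LBR is also a protein of the nuclear envelope, its gene was set beside 13 genes for lamins, inner nuclear membrane proteins and HP1 proteins, of which 12 were found and tested. In edgeR, 5 of them were lower, 1 was higher and 6 were not called, so that the 6 called of 12 stand beside 47.7% of all tested genes (22.9% lower, 24.8% higher), and the median log2 fold change was 0.036, near that of all tested genes. The lower genes included both B-type lamins, the partners that give LBR its name. *LMNB1* fell from 230.5 ± 9.08 to 34.6 ± 2.73 CPM (SD, n = 3 each; log2FC -2.73, SE 0.12; edgeR FDR 2.46e-07) and *LMNB2* from 65.4 ± 2.34 CPM to 28.7 ± 1.92 CPM (log2FC -1.19, SE 0.12; edgeR FDR 3.32e-05). *TMPO*, which encodes lamina-associated LAP2 proteins, fell from 68.3 ± 3.74 to 13.1 ± 2.76 CPM (log2FC -2.38, SE 0.17; edgeR FDR 3.76e-06). Further lower genes were *SUN2*, a linker to the cytoskeleton, at -0.66 and *CBX5*, which encodes HP1α, at -0.48. *LMNA*, the gene for A-type lamins, averaged 2654 ± 147 CPM in the control libraries and 2841 ± 294 CPM after CD, with a log2FC of 0.098 (SE 0.13, edgeR FDR 0.57), and *EMD*, the gene for emerin, had 0.14 (edgeR FDR 0.33). *CBX1*, another HP1 gene, was higher at 0.47. The call of *CBX1* was lost without control replicate 1, control replicate 3 or CD replicate 2, which left 0 higher genes, and that of *CBX5* without control replicate 1, control replicate 2 or CD replicate 2, which left 4 lower genes. Without CD replicate 3, 3 genes were higher, with *LEMD3* at 0.35 and *SUN1* at 0.51 beside *CBX1*.

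**Figure D4:**
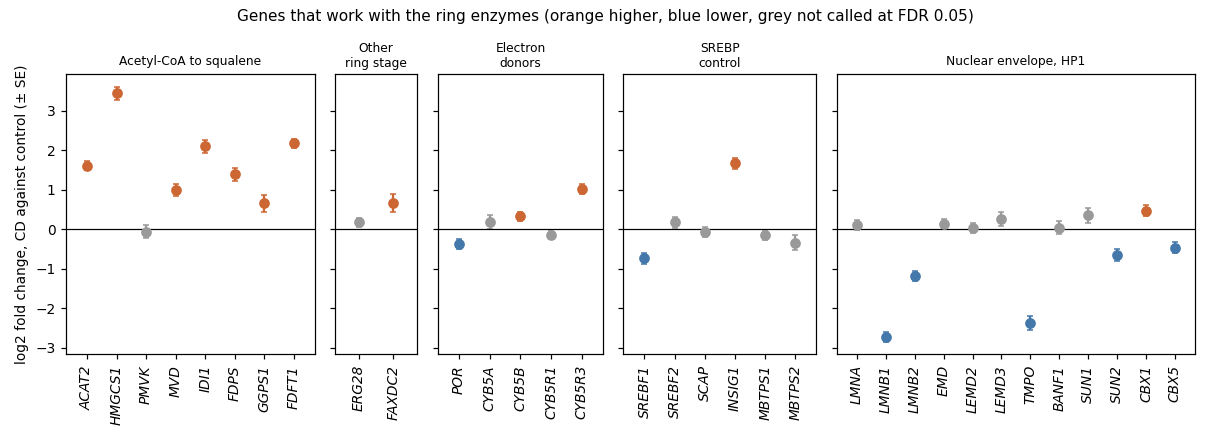
Log2 fold change of CD against control (vertical axis, ± SE, edgeR) for the tested genes of 5 lists that work before, with or around the ring enzymes. Orange points were called higher, blue points lower and grey points were not called at an FDR of 0.05; 7 of the 8 genes from acetyl-CoA to squalene, the side branch *GGPS1* included, are orange, and *LMNB1* (-2.73) and *TMPO* (-2.38) are the lowest points.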

How the data were processed

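The 6 libraries were prepared by the authors from poly(A) mRNA with the Nextera XT kit. Per the labels and the study's methods, reads were trimmed with fastp 0.20.1 and aligned to the mink assembly NNQGG.v01 with STAR 2.7.2a. The program that counted reads on genes and its strand setting are not given in the sources used here, so reads of overlapping or antisense genes could be misassigned. In the RefSeq annotation of another mink assembly (ASM_NN_V1), 8 of the 9 genes were found, and 0 of them overlapped another gene. The authors deposited raw counts per gene and a normalized copy, which was not used. No sequence or coordinate is given, as no genome of the authors' assembly was used here. The table's 4 summary rows (unmapped, multimapped, ambiguous and featureless reads), 29.3% to 47.2% of all reads in a library, were left out.

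Counts were filtered with filterByExpr (minimum count 10, minimum total 15), scaled by TMM and compared with glmQLFit (robust) and glmQLFTest of edgeR 4.0.16 in R 4.3.3, with condition as the only term. The code was checked on simulated data with few changed genes and no deviating library. Such data do not test how the procedure performs under the conditions of this comparison. Standard errors are the log2 fold change divided by the square root of F, and their median was 0.18 over all tested genes. Ratios of 2 genes used log2 of the counts plus 0.5. No replicates were duplicates by a chi-square comparison of their counts. Alternatives were DESeq2 1.42.0, voom of limma 3.58.1, other scalings and filters, the replicate number as a block, and each library left out.

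The 9 genes, the lists and the tests were chosen with earlier results of these data known. From the lists, 2 genes are not reported here. The genes named are the 9, the members of the lists, the markers, and for *TM7SF2* and *LBR* the 3 genes with the most similar profiles. Neighbouring genes in the genome were added after the values were seen.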

Additional observations from a re-analysis of the deposited data

How the results depend on the processing

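*LSS*, *CYP51A1*, *TM7SF2*, *LBR*, *MSMO1*, *NSDHL*, *HSD17B7* and *SC5D* kept their direction and their call under all 14 alternative settings. *DHCR7* kept its direction and was called in 11, and over the tests that left out 1 library its log2 fold change ranged from 0.44 to 0.66. Without 1 library, between 7 and 8 of the 9 genes were higher and 1 was lower, while over all genes between 2216 and 3616 were higher and between 2194 and 3606 were lower. The widest counts were reached without CD replicate 3. An FDR of 0.01 left 2006 of the 3016 higher genes. The lists of few genes moved more. Of the other ring-stage genes, 0 were higher with DESeq2 and 0 with the replicate block, and between 0 and 1 without 1 library. Of the electron donors, 1 was higher with each of DESeq2, DESeq2 size factors in edgeR, no filter on low counts and the replicate block, and 0 were lower with the block; without 1 library, between 1 and 2 were higher and between 0 and 2 lower. The fewest and most genes without 1 library were 0 and 1 lower for the isoprenoid and squalene genes, 1 and 2 lower for SREBP control, and 0 and 3 higher for the nuclear envelope. Genes that were not called changed sign without 1 library: *PMVK* ranged from -0.31 to 0.096, *CYB5A* from -0.084 to 0.31, *LEMD2* from -0.053 to 0.14 and *BANF1* from -0.16 to 0.19. Tests without 1 library have fewer samples, and the cause of these changes was not tested.

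Same-numbered control and CD libraries did not deviate together (correlations of -0.024, -0.33 and -0.18 across genes), and none correlated best with its own number, so the numbers are not taken as pairs. With the replicate block, 2772 genes were higher and 2636 lower, of which 8 and 1 were among the 9 ring enzymes. In the other lists, *FAXDC2*, *POR*, *CYB5B* and *CBX5* were not called with the block (FDR 0.0549, 0.0523, 0.0966 and 0.0506, edgeR), which left 4 lower genes of the nuclear envelope. Of the 9 ring enzymes, *TM7SF2* had the fewest reads, as few as 78 in a library.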

Other observations

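*TM7SF2* and *LBR* were also compared with the profiles of 10080 other tested genes with a symbol, by the root mean square distance of log2 CPM over the 6 libraries after each gene was centred on its control mean. This likeness uses the same libraries as the fold changes and is a description. The profiles nearest to *TM7SF2* were those of *ECM1*, an extracellular matrix protein, at a distance of 0.083, *LZTS3* (0.094) and *LGMN*, a lysosomal protease (0.096), with log2 fold changes of 1.99, 1.97 and 1.98 in edgeR. The profiles nearest to *LBR* were those of *AMIGO1* (0.084), *CLTCL1*, a clathrin heavy chain (0.089), and *NRP1*, a receptor for semaphorins and VEGF (0.091), with log2 fold changes of -1.08, -1.04 and -1.16.

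The genes next to the ring enzymes in the RefSeq annotation of mink assembly ASM_NN_V1, which is not the assembly of the counts, were also looked up. Of these neighbours, 7 were tested, and 1 was higher and 4 were lower in CD at an FDR under 0.05 in edgeR, beside 24.8% and 22.9% of all tested genes. *TM7SF2*, with a log2 fold change of 2.01, lies between *VPS51*, a subunit of a tethering complex, which was at 0.20 and not called (FDR 0.24, edgeR), and *ZNHIT2*, which was lower at -0.74 (FDR 0.0142, edgeR). *SORL1*, a sorting receptor next to *SC5D*, was lower at -1.91 with a standard error of 0.24 (FDR 1.45e-04, edgeR), while *SC5D* was higher. *ZNF185* next to *NSDHL* and *DDR2*, a collagen receptor next to *HSD17B7*, were lower at -1.16 and -0.79. *KLHL2*, next to *MSMO1*, was the neighbour that was higher, at 0.95 (FDR 0.00354, edgeR), and *ENAH*, next to *LBR*, was not called at 0.35 (FDR 0.26, edgeR).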
